A study of Mus musculus with 6 samples.

Results

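Lower glycolysis is the run of enzymes that takes fructose bisphosphate to pyruvate, from aldolase to pyruvate kinase. The genes described here are Aldoa, Aldoc, Tpi1, Gapdh, Pgk1, Pgam1, Eno1, Eno2, Eno3 and Pkm, which were matched by symbol and are 10 genes of 54838 gene identifiers in the data. Symbol Aldoa is carried by a second identifier as well (11 identifiers in all), and the values below are those of the identifier with the most reads. RNA was sequenced from B16F10, an established mouse melanoma cell line, in 6 samples. Of these, 3 had DMSO, the solvent control, and 3 had GSK126 at 10 µM. GSK126 is an inhibitor of EZH2, the histone methyltransferase of Polycomb repressive complex 2, and the study's title concerns lipid metabolism and the sensitivity of these cells to such an inhibitor. No other agent or allele is labelled in either group. How long the cells were treated, and at what concentration of DMSO, is not stated in the labels, and the growth protocol names alternative media without saying which sample had which. The labels do not say whether replicates came from separate cultures, and the p-values may reflect technical spread alone. A cultured line of this kind lacks the other cells of a tumour.

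Aldolase splits fructose bisphosphate into 2 triose phosphates, and triose phosphate isomerase (Tpi1) interconverts them. Glyceraldehyde phosphate dehydrogenase (Gapdh) makes NADH, phosphoglycerate kinase (Pgk1) and pyruvate kinase (Pkm) make ATP, and phosphoglycerate mutase (Pgam1) and enolase connect these steps. Tumour cells commonly run this route at a high rate and export the product as lactate, and most of its enzymes are classical targets of hypoxia-inducible factors. Aldoa and Eno1 are the widely expressed isozymes, while Aldoc is the brain aldolase, Eno2 the neuronal enolase and Eno3 the muscle enolase.

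Library totals ran from 13594939 to 14713373 gene counts. Counts of replicates of a group differed by more than counting noise, with a chi-square of 7.12 to 13.3 per degree of freedom, so none was treated as a repeat of another. All 7 melanocyte lineage markers were expressed in every library, with summed levels of 21370 to 22570 CPM (reads scaled to a common library size, as edgeR gives them) in DMSO and 22770 to 23940 CPM with GSK126. Of those markers 4 were higher and 1 was lower with GSK126 by edgeR at an adjusted p below 0.05. The shares of all tested genes that were higher and lower were 5.87% and 5.18%. In bulk RNA a change in the make-up of the cells and a change in RNA per cell cannot be told apart. Marker lists of fibroblasts, leukocytes, endothelium and keratinocytes summed to at most 3.56 CPM in any library.

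A point about sequence comes first, because it sets what the Gapdh values below can mean. The coding sequence of Gapdh, of 1002 bases, has a processed pseudogene, Gm5559 (GRCm38 5:95861714-95862715), that matches it at 99.9% of positions. They differ by 1 base, T385A, counted from 1 at the A of the start codon with the Gapdh base first. Below are the 121 coding bases from 325 to 445 of each, in GENCODE M21 transcripts, with the differing base in capitals.
Gapdh: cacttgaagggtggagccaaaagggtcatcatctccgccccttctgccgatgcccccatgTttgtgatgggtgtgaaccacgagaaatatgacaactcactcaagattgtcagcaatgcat
Gm5559: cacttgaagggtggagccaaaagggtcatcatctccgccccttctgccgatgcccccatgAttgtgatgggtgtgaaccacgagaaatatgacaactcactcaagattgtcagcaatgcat
Downstream of that base the 2 sequences are identical for 617 bases, to the end of the coding sequence. A read that does not cross this position, and stays inside the coding sequence, could be assigned to either gene.

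With GSK126, 9 of the 10 lower glycolysis genes were higher than in DMSO and 0 were lower, by edgeR's quasi-likelihood test with Benjamini-Hochberg adjustment over 13601 tested genes at 0.05. At an unadjusted p below 0.05, and by DESeq2 and limma-voom, the counts were likewise 9 and 0. Of all tested genes 5.87% were higher and 5.18% were lower. The 10 genes were chosen with earlier results of these data known, so these shares are a background and not a test of the list. All 10 genes, Eno2 included, had every GSK126 sample above every DMSO sample, which held for 17.6% of all tested genes. The median log2 fold change was 0.49 over the 10 genes and -5e-04 over all tested genes. Among the 2371 tested genes above 100 CPM on average, a class that 7 of these genes belong to, 216 (9.11%) were higher and the median log2 fold change was -0.02. The 10 genes together held 0.672% ± 0.017 of all counts in DMSO and 0.931% ± 0.0295 with GSK126 (SD, n = 3), a ratio of 1.39. The 3 DMSO values of this share (0.690%, 0.656% and 0.669%) lay below the 3 GSK126 values (0.960%, 0.933% and 0.901%), and the exact two-sided permutation p of 0.10 is the smallest that 3 samples against 3 allow.

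**Figure D1:**
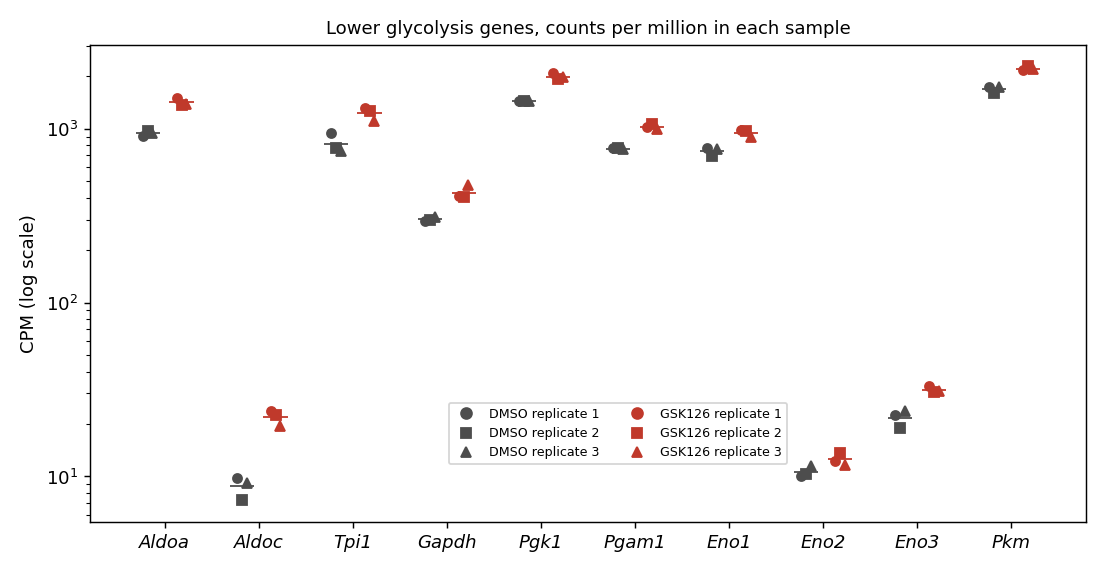
CPM of the 10 genes in each of the 6 samples, on a log axis, with DMSO in grey and GSK126 in red, a symbol for each replicate number and a short line at each group's mean. Every red point lies above every grey point of its gene, narrowly so for Eno2 (11.7 against 11.5 CPM), and Aldoc shows the widest gap.

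Aldoa (GRCm38 7:126795234-126800751), the main aldolase, was at 909, 970 and 946 CPM in DMSO replicates 1, 2 and 3 and at 1508, 1363 and 1385 CPM with GSK126. The GSK126 samples were all above the DMSO samples, by a gap wider than the spread inside either group. Its log2 fold change was 0.59 (SE 0.05, 1.51-fold; edgeR adjusted p = 0.00114). A separate identifier with the same symbol, upstream of it at 7:126800790-126809108, had 20, 10 and 14 reads in DMSO and 7, 6 and 11 with GSK126, and did not pass the test (log2 fold change -0.94, SE 0.39; edgeR adjusted p = 0.174).

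Aldoc (11:78322968-78327781), the brain-type aldolase, was at 9.78, 7.33 and 9.19 CPM in DMSO and at 23.9, 22.6 and 19.4 CPM with GSK126. The groups lay far apart, with the lowest GSK126 sample well above the highest DMSO sample. Aldoc had the largest log2 fold change of the 10 genes, 1.33 (SE 0.14, 2.51-fold; edgeR adjusted p = 0.00212), on at most 133 reads per library in DMSO and at least 278 with GSK126. By length it stayed a small part of aldolase, as described below.

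Tpi1 (6:124810586-124814296) was at 940, 769 and 744 CPM in DMSO and at 1306, 1264 and 1099 CPM with GSK126. DMSO replicate 1 was high in its group and GSK126 replicate 3 low in its own, which left the widest relative spread among the abundant genes, though the groups did not overlap. The log2 fold change was 0.58 (SE 0.10, 1.496-fold; edgeR adjusted p = 0.0148). The call was lost on leaving out DMSO replicate 2 (0.54, adjusted p = 0.0625 by edgeR), DMSO replicate 3 (0.52, adjusted p = 0.0535) or GSK126 replicate 1 (0.53, adjusted p = 0.0544).

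Gapdh (6:125161715-125166467) was at 295, 298 and 309 CPM in DMSO and at 409, 404 and 471 CPM with GSK126. Replicate 3 was the highest of the GSK126 samples, and the lowest of them was still well above all DMSO samples. The log2 fold change was 0.51 (SE 0.07, 1.42-fold; edgeR adjusted p = 0.0050). These are the reads assigned to the Gapdh identifier alone; Gm5559 held more, as given below.

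Pgk1 (X:106187100-106203699), the first ATP-making enzyme of the pathway, was at 1441, 1431 and 1444 CPM in DMSO and at 2078, 1927 and 1967 CPM with GSK126. The DMSO samples were nearly equal, and the GSK126 samples all stood far above them. Its log2 fold change of 0.47 (SE 0.04, 1.38-fold) had an edgeR adjusted p of 0.0011. Pgam1 (19:41911871-41918664), the mutase that moves the phosphate of phosphoglycerate, was at 771, 769 and 758 CPM in DMSO and at 1026, 1059 and 995 CPM with GSK126. It showed the same tight DMSO group, with no overlap (log2 fold change 0.42, SE 0.04, 1.34-fold; edgeR adjusted p = 0.00134).

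Among the enolases, Eno1 (4:150236721-150248879) was at 771, 693 and 763 CPM in DMSO and at 979, 967 and 893 CPM with GSK126. DMSO replicate 2 and GSK126 replicate 3 were the low samples of their groups, and the groups did not overlap. Eno1 had the smallest log2 fold change of the 9 that passed, 0.35 (SE 0.06, 1.27-fold; edgeR adjusted p = 0.0117).

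Eno3 (11:70657202-70662513), the muscle enolase, was at 22.7, 19.1 and 23.6 CPM in DMSO and at 33.1, 30.7 and 30.9 CPM with GSK126. The groups were apart, with a log2 fold change of 0.53 (SE 0.10, 1.45-fold; edgeR adjusted p = 0.0174). The call was lost without DMSO replicate 1 (0.56, edgeR adjusted p = 0.0582) and without GSK126 replicate 1 (0.50, edgeR adjusted p = 0.0622). Of 7 skeletal muscle markers, Myh1, Myh4 and Tnnt3 had 0 reads in every library, and the list summed to 0.294 to 0.445 CPM in DMSO and 0.419 to 0.628 CPM with GSK126, so the defining markers of muscle were at or near 0 in libraries with Eno3 at 19.1 CPM or more.

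Eno2 (6:124760053-124769673), the neuronal enolase, was at 10.1, 10.3 and 11.5 CPM in DMSO and at 12.2, 13.7 and 11.7 CPM with GSK126. The highest DMSO sample and the lowest GSK126 sample nearly touched. Its log2 fold change of 0.24 (SE 0.11, 1.18-fold) did not pass (edgeR adjusted p = 0.197). Of 6 neuron markers, Snap25 and Nefl had 0 reads in every library. The neuron list summed to 13.3 to 42.1 CPM in DMSO and 38.2 to 55.02 CPM with GSK126, nearly all of it Map2, which was at 41.2, 40.4 and 11.9 CPM in DMSO and 50.9, 36.2 and 54.4 CPM with GSK126. The part of cells of that kind in the Eno2 and Aldoc values was not tested.

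Pkm (9:59656368-59679375), whose product makes pyruvate and ATP, was at 1726, 1604 and 1731 CPM in DMSO and at 2174, 2279 and 2185 CPM with GSK126. It had the most reads of the 10 genes in both groups, and the groups did not overlap. The log2 fold change was 0.39 (SE 0.04, 1.31-fold; edgeR adjusted p = 0.00315). Pkm makes alternative muscle-type and growth-type enzymes through exons that exclude each other, and counts per gene cannot tell these forms apart.

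Apart from Bpgm and Pgam5, given last, the relatives of these genes named here were mostly few in reads or silent. An exception among the retrogenes was Eno1b, at 254 CPM in DMSO and 305 CPM with GSK126 on average, which is described with the copies below. Gapdhs and Pgk2, the sperm forms, and Eno4 had 0 reads in all 6 libraries. Pklr, the liver and red cell pyruvate kinase, had 0 CPM in 4 libraries and at most 0.612 CPM, and Pgam2, the muscle mutase, reached at most 0.272 CPM. The retrogenes Aldoart1 and Aldoart2 stayed at or below 0.889 CPM and 0.136 CPM. Bpgm, which makes bisphosphoglycerate, went from 50.2 ± 4.32 to 54.4 ± 3.69 CPM and Pgam5, a mitochondrial protein phosphatase of the mutase family, from 29.9 ± 9.31 to 23.0 ± 4.94 CPM (SD, n = 3), and neither passed (edgeR adjusted p = 0.428 and 0.347).

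Levels of different genes can be set side by side only per length, and here the choice of length mattered. The length behind the FPKM values deposited by the authors, worked out from counts and FPKM, equalled the sum of all distinct annotated exons of the gene, overlapping exons counted repeatedly, for 97.5% of 23333 genes within 1%. It equalled the merged exon length for 39.9%. Genes with many annotated transcripts were therefore divided by a long length: 8626 bases for Gapdh, which has 13 annotated transcripts and a principal transcript of 1420 bases, a factor of 6.07. The factor was 4.60 for Eno2, 3.88 for Eno1, 3.87 for Aldoa, 3.03 for Pkm, 2.95 for Tpi1, 2.01 for Eno3, 1.99 for Aldoc, 1.67 for Pgk1 and 1.03 for Pgam1. Pgam1 was an exception to the rule. Its FPKM length of 1831 bases equalled neither its distinct exons (2804 bases) nor its merged exons (1982 bases). A comparison of 1 gene between samples is not touched by this, since the length cancels.

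Per kilobase of principal transcript, scaled as CPM, the DMSO order was Pgk1 at 786 ± 3.55, Pkm at 692 ± 28.6, Aldoa at 622 ± 19.5, Tpi1 at 508 ± 67.9, Pgam1 at 431 ± 5.68, Eno1 at 365 ± 20.7 and Gapdh at 211 ± 4.32 (SD, n = 3). Far below came Eno3 at 13.9 ± 1.51, Eno2 at 3.79 ± 0.253 and Aldoc at 3.14 ± 0.458. The sample ranges of neighbours in this order did not overlap. With GSK126 the order was Pgk1 at 1091 ± 47.4, Aldoa at 939 ± 56.0, Pkm at 910 ± 23.5, Tpi1 at 761 ± 71.6, Pgam1 at 579 ± 19.6, Eno1 at 467 ± 25.2, Gapdh at 301 ± 25.03, Eno3 at 20.2 ± 0.948, Aldoc at 7.89 ± 0.869 and Eno2 at 4.48 ± 0.367. Aldoa and Pkm overlapped there, and Aldoc had moved from below Eno2 to above it. By FPKM, Pgam1 was instead second in DMSO at 417 ± 5.50, ahead of Pkm at 228 ± 9.43, and Aldoc was above Eno2 in both groups. Gapdh was the lowest of the 7 abundant enzymes on either length.

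Reads of copies form a further limit on these levels. A copy is here any other gene that shares at least 30 exact stretches of 50 bases with a member's principal transcript. For Gapdh, 129 such genes exist, and 82.5% of its 50-base stretches and 78.0% of its 100-base stretches also occur in another gene. Gm5559 alone had 5047, 4959 and 5104 reads in DMSO and 6136, 7726 and 6768 reads with GSK126, more than Gapdh itself (116% of the Gapdh reads over all libraries). The GSK126 samples of this pseudogene were all above its DMSO samples (log2 fold change 0.37, SE 0.07; edgeR adjusted p = 0.0236). Another Gapdh pseudogene, Gm10327, held 1.11%. Copies made up 53.3% to 59.2% of the summed reads of Gapdh and its copies, and whether any of those reads came from transcripts of the pseudogenes cannot be told apart here.

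Eno1 shared 72.2% of its 50-base stretches. Its retrogene Eno1b had 3485, 3571 and 3404 reads in DMSO and 4560, 4610 and 4072 with GSK126, equal to 33.1% of the Eno1 reads, and was higher (log2 fold change 0.26, SE 0.05; edgeR adjusted p = 0.0218). Pseudogenes Gm5855 and Gm8483 held 23.1% and 9.10% of the Eno1 reads, and they were higher too, with log2 fold changes of 0.32 (SE 0.05) and 0.36 (SE 0.07) and edgeR adjusted p of 0.0107 and 0.0242. For Pkm, pseudogene Gm6560 held 8.66% (log2 fold change 0.52, SE 0.05; edgeR adjusted p = 0.00144) and AC160637.1, which overlaps Pkm exons by 767 bases on the same strand, held 3.23% (log2 fold change 0.31, SE 0.09; edgeR adjusted p = 0.0662). For Pgam1, Pgam1-ps2 held 6.68% (log2 fold change 0.35, SE 0.12; edgeR adjusted p = 0.103).

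Pgk1 shared 68.0% of its 50-base stretches with other genes, yet its copies took only 0.224% to 0.317% of the summed reads. Copies took under 1% for Tpi1 and under 0.2% for Aldoa, and Aldoc, Eno2 and Eno3 had none. When the reads of each gene were summed with those of its copies before the fit, the same number, 9 of 10, was higher by edgeR. The log2 fold change was then 0.43 for Gapdh (SE 0.05, adjusted p = 0.00426), 0.33 for Eno1 (SE 0.05, adjusted p = 0.00934), 0.40 for Pkm and 0.42 for Pgam1. The level per principal transcript rose with the copies added from 211 to 503 ± 11.6 for Gapdh and from 365 to 609 ± 26.5 for Eno1 in DMSO, and stood at 680 ± 38.0 and 767 ± 38.4 with GSK126 (SD, n = 3). With copies, Gapdh in DMSO was above Pgam1 at 460 ± 4.70 and overlapped Tpi1 at 512 ± 68.6, where without them it was below both.

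Overlap with neighbours on the opposite strand was small. Gapdh shares 68 exon bases with Iffo1, which had 4.74% as many reads as Gapdh and did not pass (log2 fold change -0.25, SE 0.10; edgeR adjusted p = 0.145). Tpi1 shares 34 exon bases with Spsb2, at 1.79% of its reads. No source used here states how strand was treated in counting.

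**Figure D2:**
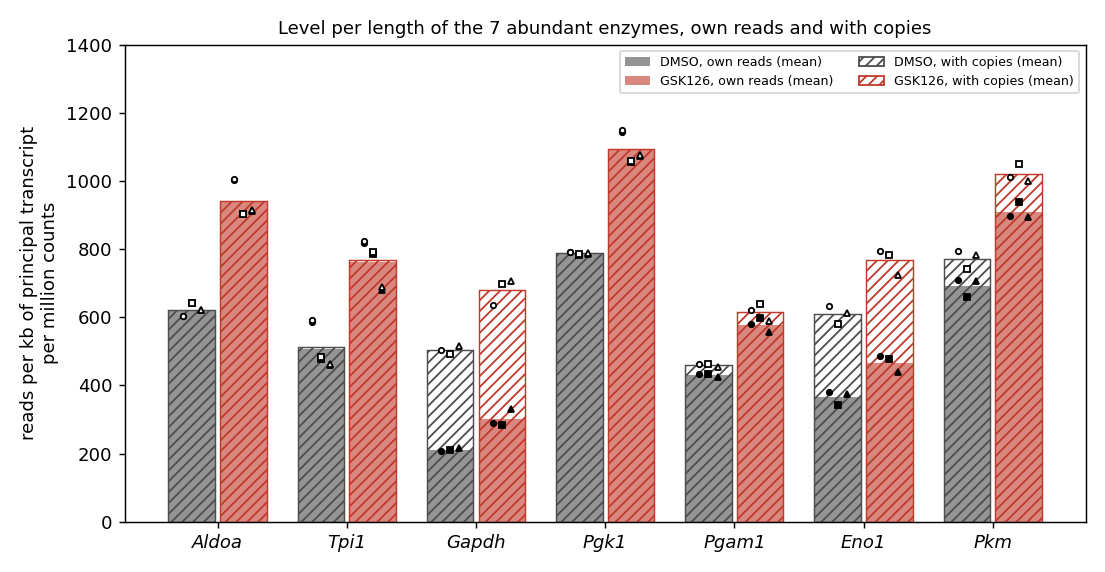
Reads per kilobase of principal transcript, scaled as CPM, for the 7 abundant enzymes, with filled bars for the mean of the gene's own reads, hatched bars for the mean with its near-identical copies added, and points for the 3 samples of each group. The hatched part is widest for Gapdh (211 to 503 in DMSO) and Eno1 (365 to 609), and the GSK126 bar is the taller one for each enzyme on either count.

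The isozymes of an enzyme did not keep equal proportions in the sample means. On the FPKM scale, Aldoc was 1.12%, 0.789% and 1.01% of aldolase (Aldoa plus Aldoc) in DMSO and 1.64%, 1.72% and 1.45% with GSK126. Each GSK126 sample was above each DMSO sample, a difference of 0.630 percentage points (exact two-sided permutation p = 0.10, the smallest possible, and 0.15 adjusted over the 3 shares tested). By principal transcript length the same share went from 0.504% ± 0.0876 to 0.833% ± 0.0716 (SD, n = 3).

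Eno3 was 6.81%, 6.38% and 7.13% of enolase in DMSO and 7.74%, 7.29% and 7.91% with GSK126, without overlap (exact permutation p = 0.10, adjusted 0.15). With the principal transcript length the means were 3.62% ± 0.209 and 4.11% ± 0.178, and with the copies of Eno1 added they were 2.22% ± 0.167 and 2.55% ± 0.106 (SD, n = 3). Eno2 was 0.738%, 0.843% and 0.847% of enolase in DMSO and 0.698%, 0.794% and 0.733% with GSK126, so that the groups overlapped (exact permutation p = 0.20, adjusted 0.20). With 3 samples a group none of these shares could pass 0.05, and in both groups Aldoa and Eno1 made up over 90% of their enzyme's level on either length.

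**Figure D3:**
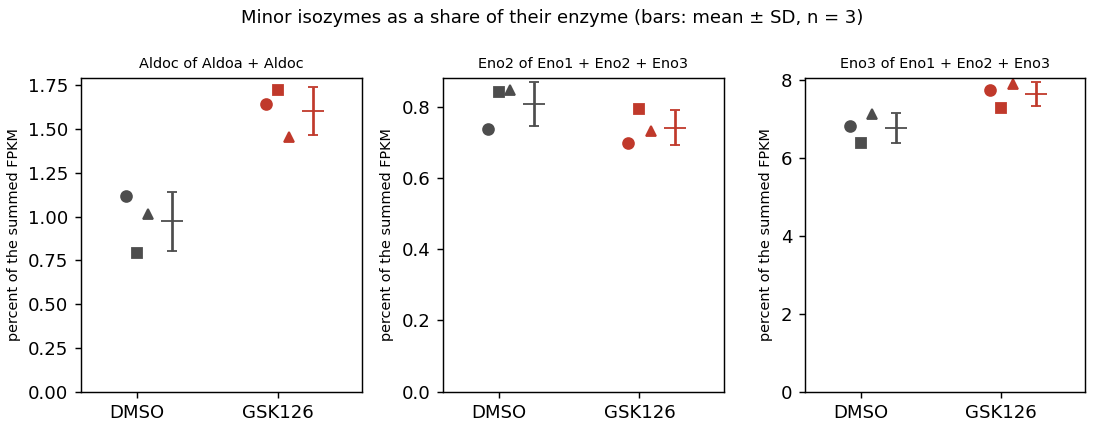
Percent of the summed FPKM of an enzyme that its minor isozyme held in each sample, for Aldoc, Eno2 and Eno3, with the group mean ± SD (n = 3) beside the points and axes from 0. The Aldoc and Eno3 points of GSK126 sit above those of DMSO, while the Eno2 points of the groups overlap (0.698% to 0.794% against 0.738% to 0.847%).

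Along the pathway the neighbouring steps were read in the same fit, in which 5.87% of all tested genes were higher and 5.18% were lower by edgeR. The counts at an unadjusted p have no such share beside them. Upstream, of 13 tested genes of glucose entry and the steps before aldolase, 6 were higher and 0 were lower by edgeR, with a median log2 fold change of 0.36 (8 and 1 at an unadjusted p below 0.05, 7 and 0 by DESeq2). By size these were led by Pfkl, the liver-type phosphofructokinase (0.88, SE 0.04), the glucose transporter Slc2a1 (0.76, SE 0.06), Pfkp, the platelet-type phosphofructokinase (0.59, SE 0.09), and hexokinase Hk2 (0.45, SE 0.05). Downstream, of 18 tested genes of lactate and pyruvate handling (20 listed), 4 were higher and 0 lower by edgeR, with a median of 0.08 (7 and 2 at an unadjusted p below 0.05, 4 and 0 by DESeq2). Those 4 were the lactate exporter Slc16a3 (log2 fold change 1.87, SE 0.09), the pyruvate dehydrogenase kinases Pdk1 (1.30, SE 0.07) and Pdk3 (0.55, SE 0.07), and lactate dehydrogenase Ldha (0.65, SE 0.04). Ldha, the step right after Pkm, was at 887, 852 and 875 CPM in DMSO and at 1408, 1359 and 1346 CPM with GSK126, with no overlap.

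**Figure D4:**
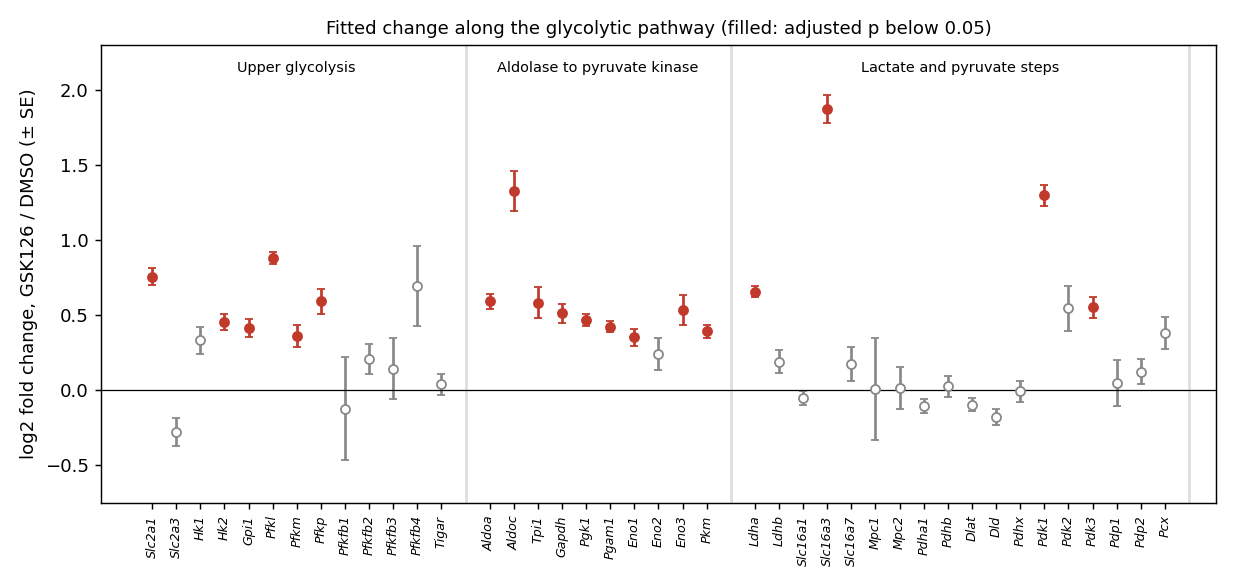
Fitted log2 fold change, GSK126 over DMSO, with its standard error for tested genes of upper glycolysis, lower glycolysis and the lactate and pyruvate steps. Filled red points passed an edgeR adjusted p of 0.05 and open grey points did not. Lower glycolysis lies between 0.24 (Eno2) and 1.33 (Aldoc), while the other 2 lists also hold genes near or below 0.

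Routes that run backward or branch off were read in the same fit, again beside 5.87% of all tested genes higher and 5.18% lower by edgeR. These lists are too short for their counts to be set apart from those shares. Of 3 tested genes of gluconeogenesis 0 were higher (1 at an unadjusted p below 0.05, 0 by DESeq2) and 1 was lower by edgeR, Pck2, the mitochondrial phosphoenolpyruvate carboxykinase (log2 fold change -0.69, SE 0.07; edgeR adjusted p = 0.00235), and Pck1, Fbp1, Fbp2 and G6pc had 0 reads. Of 8 tested pentose phosphate genes 0 passed in either direction by edgeR or DESeq2, and 1 was lower at an unadjusted p below 0.05. Tkt, the most abundant of them, had a log2 fold change of 0.11 (SE 0.10; edgeR adjusted p = 0.522). Of 5 genes that draw on triose phosphate or phosphoglycerate 0 were higher (2 at an unadjusted p below 0.05, 0 by DESeq2) and 1 was lower by edgeR. Phgdh, which diverts phosphoglycerate to serine, went from 341, 315 and 355 CPM in DMSO to 241, 234 and 226 CPM with GSK126. The GSK126 samples were all below the DMSO samples (log2 fold change -0.53, SE 0.06; edgeR adjusted p = 0.00235).

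Gapdh and Pgk1 are often used as reference genes, and were set against 13 others (Actb, B2m, Hprt, Tbp, Ppia, Rplp0, Ywhaz, Sdha, Gusb, Tfrc, Rpl13a, Eef1a1 and Polr2a). These are a part of the list drawn up, so no count over them is given, and the values hold for the genes named only. Eef1a1, a translation elongation factor and the most abundant of them, had a log2 fold change of -0.04 (SE 0.05; edgeR adjusted p = 0.656). Relative to each of the 13, the log2 ratio of Gapdh reads was higher with GSK126 by 0.42 (Polr2a) to 0.89 (Actb), and that of Pgk1 reads by 0.38 (Polr2a) to 0.85 (Actb). The Gapdh ratios use the reads of its own identifier alone. Summed with its copies, Gapdh had a log2 fold change of 0.43, against 0.51 without them.

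**Figure D5:**
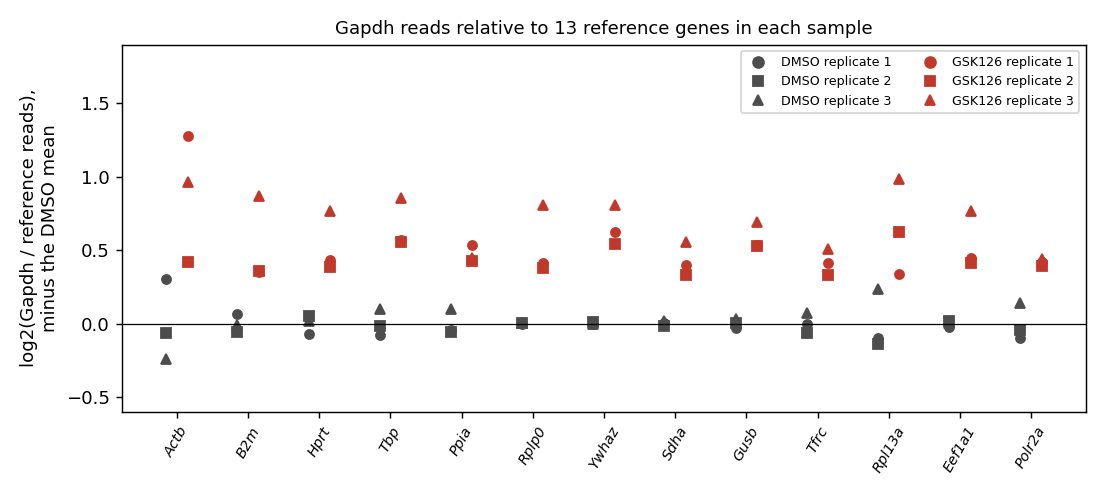
Log2 ratio of Gapdh reads to the reads of each of 13 reference genes in each sample, minus the mean of the 3 DMSO samples for that gene. Gapdh reads are those of its own identifier, without copies, and the reference genes are a part of the list drawn up. Mean differences between GSK126 (red) and DMSO (grey) run from 0.42 (Polr2a) to 0.89 (Actb), and the ratio to Actb varies most between samples.

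Eno2, Tpi1 and Gapdh lie within 406415 bases of each other on chromosome 6 (GRCm38 6:124760053-125166467). Of the 18 other tested genes in that stretch 1 was higher, Cdca3, a cell cycle gene (log2 fold change 0.25, SE 0.06; edgeR adjusted p = 0.0461), and 1 was lower, Nop2, a ribosomal RNA methyltransferase gene (-0.50, SE 0.04; edgeR adjusted p = 9.39e-04). These 2 are named because they passed. Over all tested genes 5.87% were higher and 5.18% were lower. The median log2 fold change of the 18 other genes was 0.04, next to 0.58 for Tpi1, 0.51 for Gapdh and 0.24 for Eno2, which did not pass.

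Promoters were read from RefSeq for GRCm38.p6, as the 250 bases before each annotated start, and all 10 genes matched (16 windows). The letters ACGTG, the core of the element that hypoxia-inducible factors recognise, were searched on both strands. The variant GCGTG was searched likewise. The palindrome CACGTG, an E-box, was the third motif, and each of its matches overlaps an ACGTG match on either strand. ACGTG was in 5 of the 16 windows (31.2%), in 4 of the 10 genes (Aldoa, Pgk1, Pgam1 and Pkm), against 16.6% of 32841 windows of all genes and 22.0% of 12279 windows of tested genes. GCGTG was in 8 windows (50.0%) against 28.2% and 45.0%, and CACGTG was in 0 windows against 6.02% and 8.40%. A pair of the Aldoa windows overlap and hold the same ACGTG, and a pair of the Eno1 windows overlap and hold the same GCGTG matches, so these letters are counted in both windows. The genes with ACGTG are printed here with the ACGTG and GCGTG letters of either strand in capitals, 5′ to 3′ on the gene's own strand, and Aldoc, the gene with the largest change, is shown beside them.
Pgk1 (chrX:106186850-106187099, plus strand): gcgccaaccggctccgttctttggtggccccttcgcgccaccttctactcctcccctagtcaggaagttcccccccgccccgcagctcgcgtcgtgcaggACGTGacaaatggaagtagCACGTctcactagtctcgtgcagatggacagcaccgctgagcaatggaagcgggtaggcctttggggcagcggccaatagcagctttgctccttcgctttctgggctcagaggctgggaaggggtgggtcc
Aldoa (chr7:126799179-126799428, minus strand): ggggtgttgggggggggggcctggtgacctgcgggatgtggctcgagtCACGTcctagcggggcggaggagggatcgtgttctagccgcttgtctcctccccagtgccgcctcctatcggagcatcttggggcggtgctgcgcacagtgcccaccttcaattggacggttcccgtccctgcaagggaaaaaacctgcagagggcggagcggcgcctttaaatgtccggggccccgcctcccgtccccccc
Pgam1 (chr19:41911621-41911870, plus strand): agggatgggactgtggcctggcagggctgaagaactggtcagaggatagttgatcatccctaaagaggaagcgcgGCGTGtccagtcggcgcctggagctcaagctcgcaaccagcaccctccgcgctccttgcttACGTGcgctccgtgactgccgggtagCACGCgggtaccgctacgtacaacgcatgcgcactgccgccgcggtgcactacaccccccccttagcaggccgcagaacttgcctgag
Pkm (chr9:59656977-59657226, plus strand): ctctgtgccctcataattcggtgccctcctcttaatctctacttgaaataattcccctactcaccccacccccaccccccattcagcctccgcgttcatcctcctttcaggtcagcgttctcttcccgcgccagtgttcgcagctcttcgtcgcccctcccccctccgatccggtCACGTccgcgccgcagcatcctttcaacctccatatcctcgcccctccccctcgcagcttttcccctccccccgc
Aldoc (chr11:78322823-78323072, plus strand): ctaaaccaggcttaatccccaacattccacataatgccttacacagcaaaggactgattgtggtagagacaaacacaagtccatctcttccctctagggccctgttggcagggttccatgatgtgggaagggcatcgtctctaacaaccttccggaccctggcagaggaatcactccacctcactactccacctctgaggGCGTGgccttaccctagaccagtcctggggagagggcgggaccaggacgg
Pgk1 has a pair of separate ACGTG matches within its window, facing opposite ways, and no CACGTG. Of all windows 6.81%, and of windows of tested genes 9.63%, hold 2 or more matches. Each CACGTG counts as 2 matches there, and most of these windows hold it (1978 of 2238, and 1032 of 1183 for tested genes). Those shares are therefore not the shares of windows with a separate pair like that of Pgk1. Aldoc has no ACGTG in either of its windows and a GCGTG in each. A match is a description of letters in these windows and not a bound site.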

How the data were processed

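RNA from B16F10 cells was sequenced in 6 samples, grouped by their treatment label. Per the submitters' processing notes, CASAVA 1.8, HISAT2 and GRCm38.p4/mm10 were used; counting tool, strand setting and annotation: not given in the sources used here. The authors deposited whole-number read counts per gene for each sample, and FPKM values, which within a gene scaled with the counts (largest ratio between libraries 1.000048 over 12035 genes).

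Counts were fitted in R 4.3.3 with edgeR 4.0.16 (filterByExpr, TMM, quasi-likelihood F test, group only), with Benjamini-Hochberg adjustment over 13601 tested genes at 0.05. The steps were tested on simulated data. CPM used TMM-scaled library sizes, with factors of 0.994 to 1.01. The standard error came from the F statistic. Copies, principal transcripts and exon lengths came from GENCODE M21. Exact permutation tests used scipy 1.17.1.

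Alternatives were RLE factors, library totals, DESeq2 1.42.0, limma-voom (limma 3.58.1), no filter, a filter of 1 CPM in 3 libraries, limma on log2(FPKM + 1) and log2(FPKM + 0.1), the replicate number as a block, each library left out, and members summed with copies; principal transcript lengths, copies found by 50-base stretches and levels with copies were added after seeing the data. Some genes of the relatives' and reference lists are not reported here, for a reason unrelated to their values; the other lists are whole. The genes, lists and tests were chosen with earlier results of these data known. By rule, all 10 members and 10 relatives were named, up to 4 called genes of each neighbouring step (the largest changes), up to 2 of each side branch and of the reference genes, or else the most abundant, and copies or overlapping genes with at least 1% of a member's reads.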

Additional observations from a re-analysis of the deposited data

How the results depend on the processing

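Aldoa, Aldoc, Gapdh, Pgk1, Pgam1 and Pkm were higher under all 17 alternatives, and no member changed direction under any. The count of members higher was 9 in the main fit and 7 to 9 without 1 library, 8 on log2(FPKM + 1) with limma and no filter (Tpi1, adjusted p = 0.0636), and 9 in the remaining alternatives except the block. Eno2 passed under none of its 15 alternatives (smallest adjusted p 0.176). Replicate numbers did not pair the samples (correlations of same-numbered deviations 0.03, -0.02 and -0.07). With the replicate block, 7 members were higher (Eno1 and Eno3 had adjusted p of 0.0540 and 0.0544), 230 of all genes were higher and 178 lower, against 798 and 705 without it.

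Over all genes, 463 were higher and 436 lower with no filter on low counts, and 440 and 427 on log2(FPKM + 1) with no filter. Leaving out 1 library gave 279 to 640 higher and 250 to 603 lower, and 0 to 1 lactate and pyruvate genes lower (1 without GSK126 replicate 3). The Aldoc share difference was 0.329 percentage points with principal transcript lengths, against 0.630. That of Eno3 was 0.380 on raw counts and 0.484 with principal transcript lengths, against 0.872. The share of the 10 members differed by 0.260 percentage points of counts, by 0.198 as a share of FPKM, by 0.293 with copies and by 0.207 without Pkm. Aldoc, Eno2 and Eno3 rest on at most 474 reads per library, and no setting with fewer reads was run.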
